A study of Brassica napus with 10 samples.

Results

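The lectin chaperones of the endoplasmic reticulum (ER) were examined here copy by copy in *Brassica napus* microspore cultures: the calnexins named CNX1 and the calreticulins named CRT1/CRT1A in the study's list of ER stress genes. The list names 11 such genes, of which 7 have a row in the raw count table, namely all 6 CNX1 copies and 1 CRT1/CRT1A copy, CRT1/CRT1A.1. They are 7 of 59458 genes with counts. The other 4 CRT1/CRT1A copies were not analysed here, so values for calreticulin describe 1 copy and not the family.

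Calnexin is a chaperone anchored in the ER membrane and calreticulin is its soluble relative in the ER lumen. Both are lectins: they bind newly made glycoproteins through a glucose left on the N-linked sugar chain, hold them while they fold, and release them when that glucose is removed. A glycoprotein that is still misfolded is given a glucose again and returns to the chaperone, which is known as the calnexin/calreticulin cycle. Both proteins also bind calcium, and in plants their transcripts are among those that can be induced when unfolded proteins accumulate in the ER. *B. napus* is an allotetraploid with an A and a C subgenome, so a single arabidopsis gene usually has several co-orthologs.

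All cultures carried the pLEC1:LEC1-GFP reporter in the DH12075 background and were collected on day 3, with 150000 cells per library. The HS + TSA high group (3 libraries) and the HS + TSA low group (4 libraries) were started from late unicellular microspores, given a heat stress and 0.5 µM or 0.05 µM trichostatin A (TSA), an inhibitor of histone deacetylases, and sorted by flow cytometry for GFP, so that they hold embryogenic cells in which the LEC1 promoter was active. The pollen group (3 libraries) was started from late unicellular microspores and bicellular pollen, kept at 18 °C without TSA, and not sorted. The methods of the study instead name mid- to late uninucleate microspores for both kinds of culture, so the sources differ on the starting stage. A difference from pollen joins cell identity, sorting, heat stress, later culture temperature, TSA and perhaps starting stage, which cannot be told apart. In bulk RNA, fewer cells of a type also cannot be told apart from less RNA per cell. All libraries come from a single genotype and from pooled cells, each library being called a biological replicate pooled from independent samples in the methods of the study. Which libraries shared a culture or a day is not given in the sources used here, so the p-values measure only the spread between these libraries.

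Library totals were 58468526 to 67884748 counts in HS + TSA high, 51838498 to 61458274 in HS + TSA low and 93367646 to 109105528 in pollen. The libraries of a treated group were not equally alike. In HS + TSA low, libraries 1 and 4 correlated with each other by 0.992 over all tested genes, while the other pairs of that group correlated by 0.947 to 0.971. In HS + TSA high, libraries 2 and 3 correlated by 0.970, and library 1 correlated with them by 0.934 and 0.918. The main values are therefore also given without HS + TSA low libraries 1 and 4, and some without HS + TSA high libraries 2 and 3. Markers of embryo, pollen and tapetum were not tested, because only the genes of the ER stress list could be tied to arabidopsis genes.

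The 6 calnexin copies lie on 3 A and 3 C chromosomes of the Darmor-bzh version 10 genome. CNX1.1 (A02p41720.1_BnaDAR) lies on the minus strand of chromosome A02 from 31804261 to 31807204, and CNX1.4 (C02p61640.1_BnaDAR) on the minus strand of C02 from 60065961 to 60068929. CNX1.3 (A09p07450.1_BnaDAR) lies on the minus strand of A09 from 4262022 to 4264738, and CNX1.6 (C09p08360.1_BnaDAR) on the minus strand of C09 from 4917881 to 4920440. CNX1.2 (A06p28440.1_BnaDAR) lies on the minus strand of A06 from 33586508 to 33589258, and CNX1.5 (C03p65370.1_BnaDAR) on the plus strand of C03 from 42959832 to 42962479. The calreticulin copy CRT1/CRT1A.1 (C09p24090.1_BnaDAR) lies on the plus strand of C09 from 18460552 to 18492481. None of the 7 spans overlaps another gene with counts (0 overlaps). Annotated genes without a row in the raw count table were not checked.

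The calnexin models share their structure. Each has 6 exons within a span of 2560 to 2969 bases, and 1853 to 2043 bases are exonic. Exon 2 has 70 bases and exon 5 has 111 bases in 6 of 6 copies. Exon 3 has 1130 bases and exon 4 has 72 bases in 5 of 6 copies, the exception being CNX1.2 with 1134 and 110 bases. The longest intron follows exon 2 in every copy, and it is longest in CNX1.4 with 756 bases and CNX1.1 with 745 bases, against 369 to 485 bases in the other 4 copies. The first and last exons vary most, from 126 to 168 and from 306 to 478 bases.

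The calreticulin model is of another kind. CRT1/CRT1A.1 has 15 exons and spans 31930 bases, of which 2237 (7.01%) are exonic. A single intron of 26980 bases follows exon 12, and the last 3 exons, with 823 exonic bases, lie beyond it. Only 73 of 47900 genes with introns (0.152%) have an intron at least as long, and the median longest intron of a gene is 310 bases. Counts are summed over exons, so whether the exons on both sides belong to the same transcript was not tested.

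**Figure D1:**
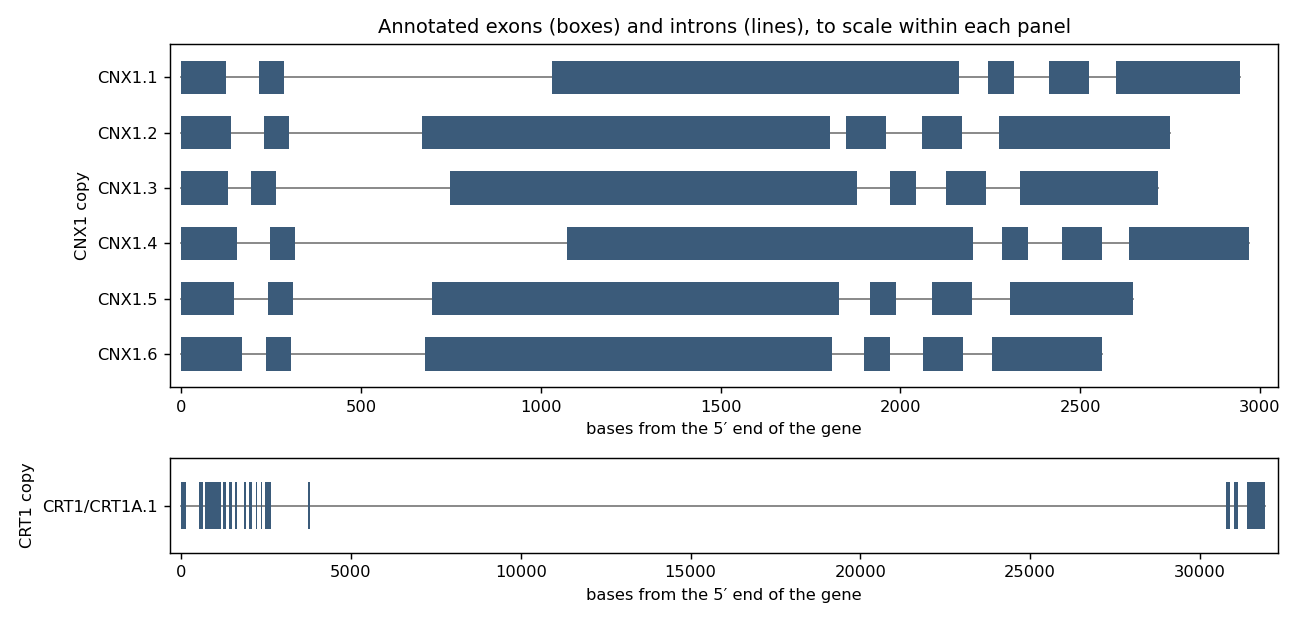
Exons (boxes) and introns (lines) of the 6 CNX1 copies (upper panel) and of CRT1/CRT1A.1 (lower panel), drawn in bases from the 5′ end of each gene, with a separate scale for each panel. The calnexin copies share 6 exons with a long exon 3, and CRT1/CRT1A.1 has an intron of 26980 bases before its last 3 exons.

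Levels are given as CPM, the raw counts relative to the library total after scaling by the trimmed mean of M values (TMM). A difference between groups is an edgeR log2 fold change, fitted on the raw counts of all 10 libraries, and was called where the p-value, adjusted by the Benjamini-Hochberg method over 45264 genes, was at most 0.05. All 7 copies passed the filter on low counts. Both treated groups are compared with the same 3 pollen libraries, so these comparisons are not independent of each other.

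The calnexin copies did not contribute equally. CNX1.4 had the highest level of the calnexins, and CNX1.1 was close to absent. Per kilobase of exonic length, which allows copies to be compared, CNX1.4 averaged 187 ± 14.2 CPM per kb in HS + TSA high, 205 ± 67.0 in HS + TSA low and 530 ± 130 in pollen (SD, n = 3, 4 and 3). CNX1.6 averaged 102, 107 and 205 CPM per kb in the same order of groups, CNX1.5 averaged 118, 145 and 159, CNX1.3 averaged 73.9, 93.2 and 141, and CNX1.2 averaged 72.8, 81.2 and 109. CRT1/CRT1A.1 averaged 173 ± 22.4 CPM per kb in HS + TSA high, 239 ± 19.6 in HS + TSA low and 372 ± 59.5 in pollen. The mean of CNX1.5 was above that of CNX1.6 in both treated groups and below it in pollen, although the ranges of these copies overlapped in each group. Within a library, CNX1.5 was the higher of the pair throughout HS + TSA low and the lower throughout pollen. In HS + TSA high it was the lower in library 1 (111 against 116 CPM per kb) and the higher in the others. In HS + TSA high, CNX1.2 and CNX1.3 did not differ beyond their spread (72.8 ± 4.64 and 73.9 ± 4.94 CPM per kb), nor did CNX1.4 and CRT1/CRT1A.1. The length used for CRT1/CRT1A.1 includes the 823 exonic bases beyond its long intron. Whether these belong to the same transcript was not tested, so its level per kb, and its comparison with CNX1.4, is uncertain.

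By mean CPM among 59458 genes, CNX1.4 ranked 202 in HS + TSA high, 179 in HS + TSA low and 21 in pollen. CRT1/CRT1A.1 ranked 167, 87 and 28 in the same groups. These ranks use CPM that is not corrected for length. Apart from CNX1.1, every copy stood among the 1043 highest genes of each group.

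CNX1.4, the copy on C02, differed most from pollen. It had 352, 323 and 376 CPM in the HS + TSA high libraries, 272, 444, 532 and 289 CPM in the HS + TSA low libraries and 726, 1046 and 1203 CPM in the pollen libraries. All treated libraries lay below all pollen libraries, and the HS + TSA high libraries lay within the range of HS + TSA low. Its fitted level in HS + TSA high was 0.353 times that in pollen (SE of the log2 fold change 0.26, edgeR adjusted p = 0.000712). In HS + TSA low it was 0.388 times that in pollen (log2 fold change −1.37, SE 0.24, edgeR adjusted p = 0.000798).

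CNX1.1, the copy on A02, was counted only rarely although its gene model resembles that of CNX1.4. It had 8 to 16 counts in HS + TSA high, 8 to 26 in HS + TSA low and 30 to 68 in pollen, where CNX1.4 had 18764 to 24678, 14364 to 30089 and 71227 to 131055 counts. Its level was 0.114, 0.138 and 0.264 CPM in HS + TSA high, 0.152, 0.296, 0.460 and 0.217 CPM in HS + TSA low and 0.428, 0.304 and 0.624 CPM in pollen. The HS + TSA high libraries lay below the pollen libraries and the HS + TSA low libraries overlapped both. No difference was called (edgeR adjusted p = 0.246 for HS + TSA high and 0.548 for HS + TSA low, against pollen). The 95% intervals of the log2 fold change were −3.43 to 0.66 and −2.54 to 1.18. At this depth they do not exclude a large decrease in either group, and both also include some increase. Reads that fit near-identical copies equally well can be lost or misplaced in counting, so the level of CNX1.1, and the division of reads among the calnexin copies, is uncertain.

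The pair on A09 and C09 moved the same way. CNX1.6 (C09) had 215, 162 and 193 CPM in HS + TSA high, 168, 235, 231 and 163 CPM in HS + TSA low and 297, 410 and 438 CPM in pollen. CNX1.3 (A09) had 139, 131 and 150 CPM in HS + TSA high, 130, 250, 191 and 136 CPM in HS + TSA low and 211, 279 and 313 CPM in pollen. Every treated library of CNX1.6 lay below pollen, whereas for CNX1.3 HS + TSA low library 2 reached into the pollen range. CNX1.6 was lower than in pollen in HS + TSA high (log2 fold change −1.01, SE 0.20, edgeR adjusted p = 0.00155) and in HS + TSA low (−0.94, SE 0.18, edgeR adjusted p = 0.00158). CNX1.3 was lower in HS + TSA high (−0.93, SE 0.24, edgeR adjusted p = 0.00702) and, by a narrow margin, in HS + TSA low (−0.60, SE 0.22, edgeR adjusted p = 0.0430). The call for CNX1.3 in HS + TSA low did not hold when replicate number was added as a block (log2 fold change −0.51, edgeR adjusted p = 0.0558) and without HS + TSA low libraries 1 and 4 (−0.28, edgeR adjusted p = 0.288). It was also lost without pollen library 2 or 3 or HS + TSA low library 1 or 4 alone (edgeR adjusted p = 0.103 to 0.159).

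CNX1.2 (A06) and CNX1.5 (C03) differed least from pollen. CNX1.2 had 138, 152 and 156 CPM in HS + TSA high, 129, 190, 202 and 142 CPM in HS + TSA low and 177, 227 and 262 CPM in pollen. CNX1.5 had 207, 204 and 252 CPM in HS + TSA high, 216, 308, 314 and 245 CPM in HS + TSA low and 255, 305 and 334 CPM in pollen. For both, HS + TSA high lay below pollen and HS + TSA low overlapped pollen. CNX1.2 was lower in HS + TSA high (log2 fold change −0.58, SE 0.19, edgeR adjusted p = 0.0291) but not called in HS + TSA low (−0.42, SE 0.18, edgeR adjusted p = 0.0779). CNX1.5 was called in neither (−0.43, SE 0.17, edgeR adjusted p = 0.0583 in HS + TSA high and −0.14, SE 0.16, edgeR adjusted p = 0.518 in HS + TSA low), and with the replicate block it was lower in HS + TSA high (−0.43, edgeR adjusted p = 0.0269). These calls turned on single libraries. CNX1.2 in HS + TSA high was not called without pollen library 2 or 3 or HS + TSA high library 1 or 3 (edgeR adjusted p = 0.0504 to 0.118), and in HS + TSA low it was called without pollen library 1 or HS + TSA low library 2 or 3 (edgeR adjusted p = 0.0277 to 0.0447). CNX1.5 in HS + TSA high was called without pollen library 1, HS + TSA low library 1, 2 or 3, or HS + TSA high library 3 (edgeR adjusted p = 0.0361 to 0.0484).

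CRT1/CRT1A.1 was the only copy in which no group overlapped another. It had 444, 353 and 362 CPM in HS + TSA high, 487, 589, 546 and 515 CPM in HS + TSA low and 736, 775 and 984 CPM in pollen. The HS + TSA high libraries were the lowest and the pollen libraries the highest. The share of all tested genes with all groups separate in this way was not computed. All HS + TSA high libraries lay below all HS + TSA low libraries in 12.1% of all tested genes. Against pollen CRT1/CRT1A.1 was lower in HS + TSA high (log2 fold change −1.11, SE 0.15, edgeR adjusted p = 0.000115) and in HS + TSA low (−0.64, SE 0.14, edgeR adjusted p = 0.00290).

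**Figure D2:**
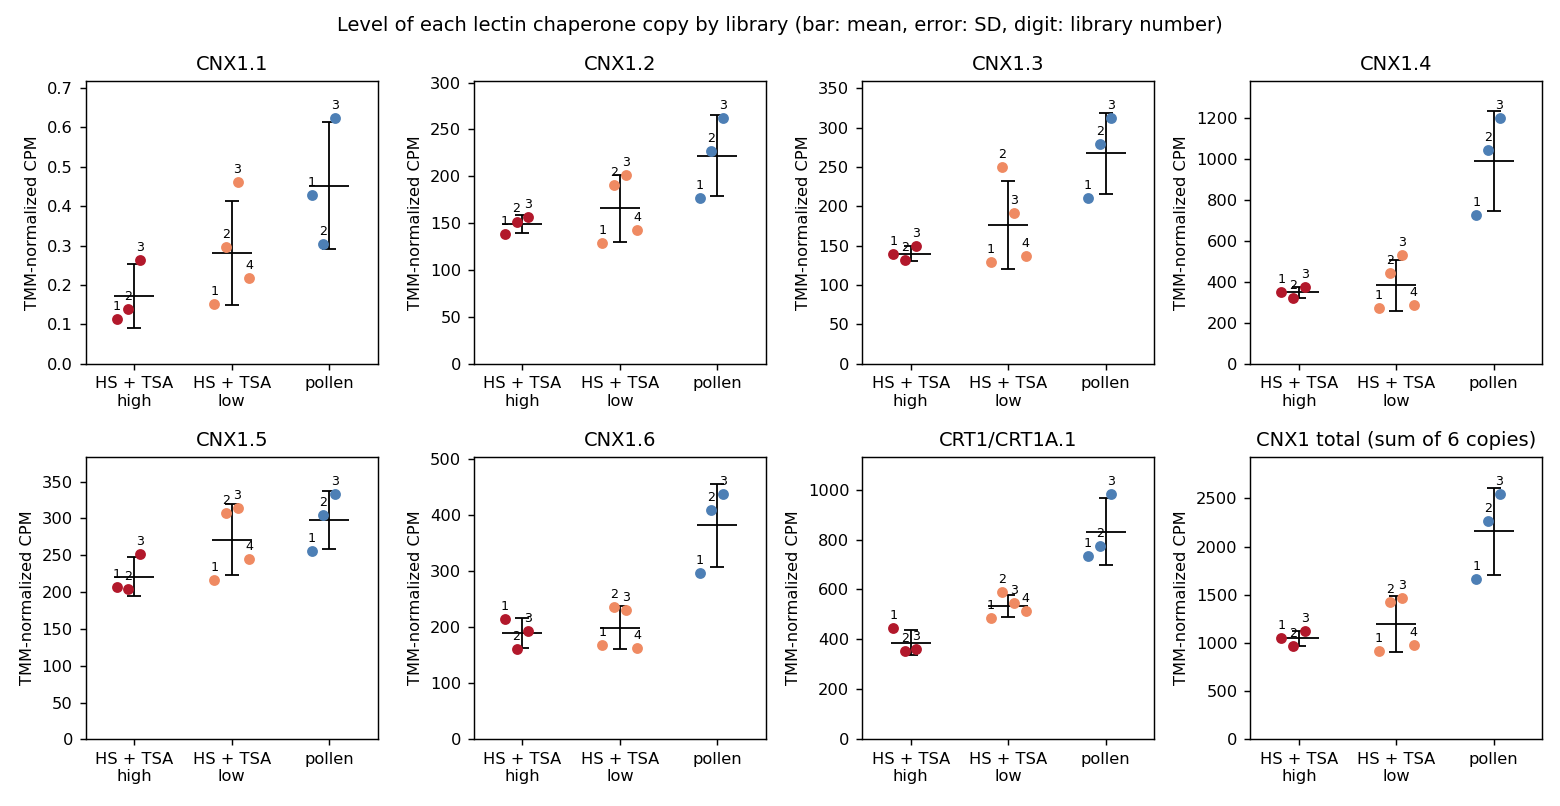
TMM-normalized CPM of each copy and of the sum of the 6 CNX1 copies, by group, with 1 point per library labelled with its number, a horizontal bar for the mean and error bars for the SD. The scale differs between panels and starts at 0. For CNX1.4, CNX1.6 and CRT1/CRT1A.1 all treated libraries lie below all pollen libraries, and HS + TSA low libraries 1 and 4 lie below libraries 2 and 3 in every panel.

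In counts of calls, 5 of 7 copies were lower and 0 higher in HS + TSA high than in pollen, beside 18.8% of all tested genes called lower in that comparison and 27.5% called higher. In HS + TSA low, 4 of 7 copies were lower and 0 higher than in pollen, beside 17.4% called lower and 26.4% called higher among all genes. In 7 of 7 copies every HS + TSA high library lay below every pollen library, which held for 27.2% of all tested genes. The same held for HS + TSA low in 3 of 7 copies (CNX1.4, CNX1.6 and CRT1/CRT1A.1), beside 24.4% of all genes. The median log2 fold change of the 7 copies was −1.01 in HS + TSA high and −0.64 in HS + TSA low against pollen, while the medians over all 45264 genes were 0.09 and 0.10. The count for HS + TSA high was 3 of 7 without its libraries 2 and 3, a fit in which the group has 1 library that is assumed to vary like the others.

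Between the 2 TSA concentrations no copy passed the test. CRT1/CRT1A.1 was the only copy whose HS + TSA high libraries all lay below the HS + TSA low libraries, 1 of 7 copies beside 12.1% of all genes. Its log2 fold change between the concentrations was −0.47 (SE 0.14, 95% interval −0.77 to −0.16) and missed the threshold (edgeR adjusted p = 0.0534). It was past the threshold with DESeq2 (log2 fold change −0.43, adjusted p = 0.0368), with limma-voom (−0.47, adjusted p = 0.0431), with upper quartile scaling, without pollen library 3 (adjusted p = 0.0476) and without HS + TSA high library 1 (adjusted p = 0.0267). In the other 20 of 25 alternatives CRT1/CRT1A.1 was not past the threshold. Without HS + TSA high libraries 2 and 3, which leaves 1 library in that group, its log2 fold change was −0.28.

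For the calnexin copies the libraries of both concentrations overlapped, and 0 of 7 copies were called in either direction, beside 5.46% of all genes called lower and 4.94% called higher. At an unadjusted p under 0.05, 1 of 7 copies passed in edgeR (CRT1/CRT1A.1), beside 27.7% of all genes. DESeq2 and limma-voom each called 1 copy, again CRT1/CRT1A.1. The 95% intervals of the log2 fold change were −0.55 to 0.24 for CNX1.2, −0.82 to 0.15 for CNX1.3, −0.66 to 0.39 for CNX1.4, −0.65 to 0.06 for CNX1.5 and −0.47 to 0.33 for CNX1.6. A moderate decrease is not excluded for any of them, and each interval also includes some increase. For CNX1.1 the interval was −2.63 to 1.22. HS + TSA low libraries 1 and 4 lay below libraries 2 and 3 in every copy. Leaving them out therefore shifts these changes downward by construction. Without HS + TSA low libraries 1 and 4 the log2 fold changes moved further below 0, to −1.13 for CNX1.1, −0.40 for CNX1.2, −0.66 for CNX1.3, −0.48 for CNX1.4, −0.49 for CNX1.5, −0.30 for CNX1.6 and −0.56 for CRT1/CRT1A.1, and 0 of 7 copies were called (the lowest edgeR adjusted p was 0.0867, for CNX1.3).

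Same-numbered libraries of the 2 concentrations can also be set side by side, a comparison added after the values had been seen. CNX1.1, CNX1.5 and CRT1/CRT1A.1 were lower in HS + TSA high than in HS + TSA low in 3 of 3 such pairs, which makes 3 of 7 copies beside 23.4% of all tested genes. The other 4 copies, CNX1.2, CNX1.3, CNX1.4 and CNX1.6, were lower in 2 of 3 pairs and higher in the pair of libraries numbered 1. With the replicate number as a block 0 of 7 copies were called, with log2 fold changes of −0.48 for CRT1/CRT1A.1 (edgeR adjusted p = 0.104) and −0.32 for CNX1.5 (edgeR adjusted p = 0.171). The group means followed the order HS + TSA high, HS + TSA low, pollen from lowest to highest in 7 of 7 copies, which 22.2% of all genes also did.

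**Figure D3:**
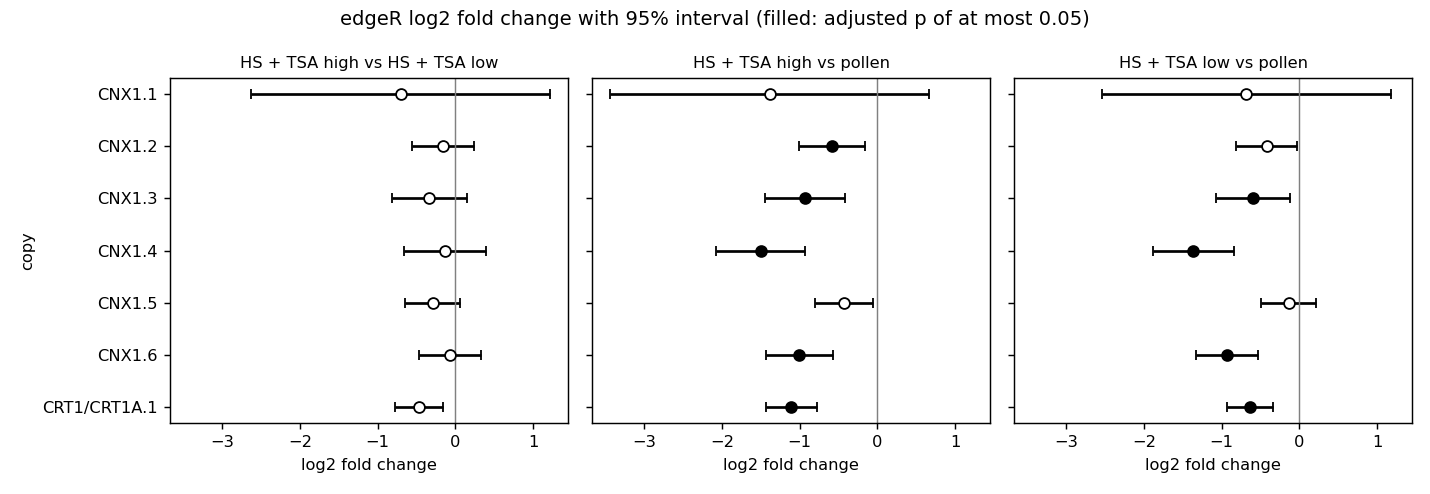
The edgeR log2 fold change of each copy (points) with its 95% interval (lines) for HS + TSA high against HS + TSA low (left), HS + TSA high against pollen (middle) and HS + TSA low against pollen (right), where negative values mean lower in the group named first. Filled points have an adjusted p of at most 0.05: none at left, 5 in the middle and 4 at right.

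The libraries of HS + TSA low split in the same way for all copies, though their full order differed between copies. In 7 of 7 copies, libraries 1 and 4 both lay below libraries 2 and 3, which 29.8% of all tested genes also did. The difference was small for CRT1/CRT1A.1, where the higher of libraries 1 and 4 had 515 CPM and the lower of libraries 2 and 3 had 546 CPM, and larger for CNX1.4, with 289 and 444 CPM. With all libraries CNX1.5 had a log2 fold change of −0.14 against pollen in HS + TSA low, and without libraries 1 and 4 it was 0.06 (edgeR adjusted p = 0.804). Without those libraries the calls for CNX1.4 (−1.02, edgeR adjusted p = 0.00464), CNX1.6 (−0.71, edgeR adjusted p = 0.0184) and CRT1/CRT1A.1 (−0.55, edgeR adjusted p = 0.0317) against pollen remained.

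Summed over the 6 copies, calnexin reached 1051, 972 and 1128 CPM in HS + TSA high, 916, 1428, 1471 and 976 CPM in HS + TSA low and 1667, 2267 and 2550 CPM in pollen. All treated libraries lay below all pollen libraries. The mean of HS + TSA high was 0.486 times and that of HS + TSA low 0.554 times the pollen mean, and the treated groups overlapped. Without libraries 1 and 4 the HS + TSA low mean was 1449 CPM, or 0.671 times the pollen mean, still with both libraries below pollen. No test is given for sums, since the copies were chosen with earlier results known. Without CNX1.4 the remaining calnexin copies summed to 700 ± 51.5 CPM in HS + TSA high, 813 ± 173 in HS + TSA low and 1170 ± 208 in pollen (SD, n = 3, 4 and 3), and HS + TSA low overlapped pollen, also without libraries 1 and 4.

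The division of the calnexin total among its copies also differed. CNX1.4 made up 33.5%, 33.2% and 33.3% of all CNX1 counts in the HS + TSA high libraries, 29.7%, 31.1%, 36.2% and 29.6% in the HS + TSA low libraries and 43.6%, 46.1% and 47.2% in the pollen libraries. No treated library reached the lowest pollen share. Without libraries 1 and 4 the mean share of CNX1.4 in HS + TSA low was 33.7%, and that of CNX1.5 was 21.5%. CNX1.5 made up 19.7% to 22.3% in HS + TSA high, 21.4% to 25.1% in HS + TSA low and 13.1% to 15.3% in pollen, with both treated groups above pollen. CNX1.2 was also above pollen in both, at 14.2%, 13.9% and 10.3%, and so was CNX1.3 by less, at 13.3%, 14.7% and 12.4%, in HS + TSA high, HS + TSA low and pollen.

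CNX1.6 made up 18.1%, 16.8% and 17.7% in HS + TSA high, HS + TSA low and pollen, and CNX1.1 made up 0.0161%, 0.0227% and 0.0212%, with overlapping libraries for both copies. The ratio of CNX1.4 to CNX1.5 was 1.59 ± 0.104 in HS + TSA high, 1.39 ± 0.229 in HS + TSA low and 3.29 ± 0.399 in pollen. Copies on C chromosomes together held 72.4% ± 1.42, 71.4% ± 1.69 and 77.3% ± 0.490 of CNX1 counts in the same groups, again without overlap between treated and pollen libraries. Without libraries 1 and 4 the HS + TSA low means of these measures were 1.57 and 71.2%, and both libraries of CNX1.6 then lay below pollen, with a mean share of 16.1%. With all libraries, CNX1.4 was the only copy on a C chromosome whose share lay below pollen in both treated groups. The share of CNX1.5 lay above pollen and that of CNX1.6 overlapped it. Shares are taken within a library and do not depend on the scaling between libraries.

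**Figure D4:**
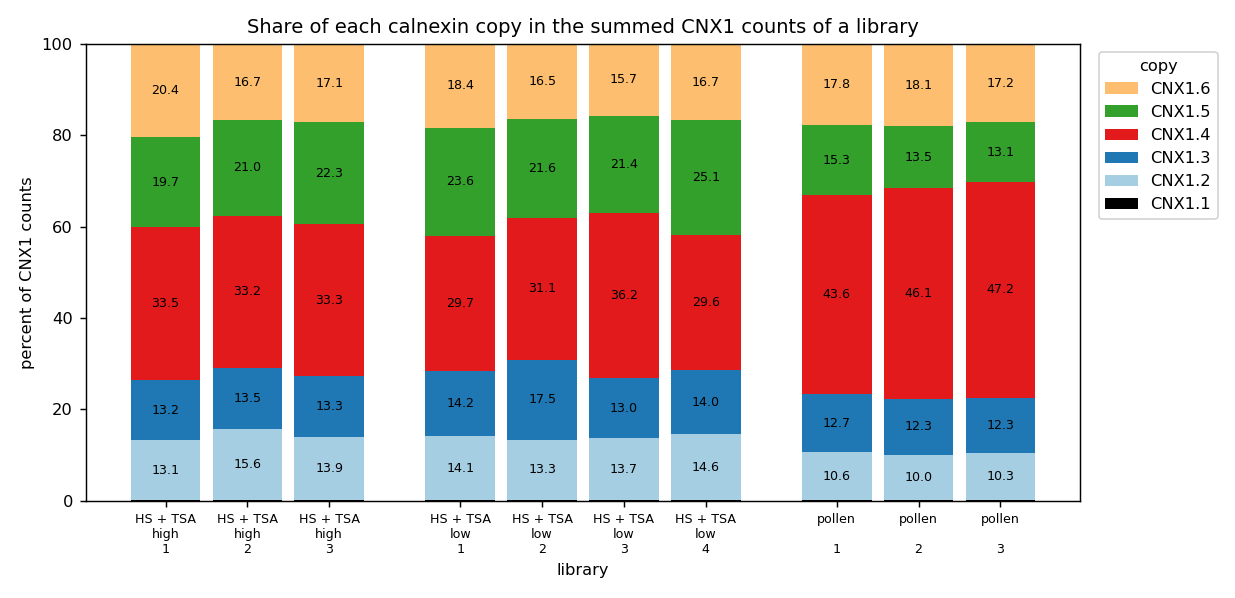
Percent of the summed CNX1 counts that each of the 6 copies contributed, as 1 stacked bar per library, with HS + TSA high at left, HS + TSA low in the middle and pollen at right. CNX1.4 takes 29.6% to 36.2% in the treated libraries and 43.6% to 47.2% in pollen, and CNX1.1 is too small to see.

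The shares of calnexin and calreticulin in their common total overlapped between groups. CRT1/CRT1A.1 held 24.3% to 29.7% of the counts of all 7 copies in HS + TSA high, 27.1% to 34.7% in HS + TSA low and 25.5% to 30.6% in pollen. The ratio of summed calnexin to CRT1/CRT1A.1 was 2.75, 2.22 and 2.59 in these groups, again with overlap. Without libraries 1 and 4 the HS + TSA low means were 28.1% and 2.56.

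The copies varied together across libraries. Over the 10 libraries, the Pearson correlation of log2(CPM + 1) between pairs of calnexin copies was 0.732 to 0.982, highest for CNX1.4 and CNX1.6. Over the 7 treated libraries it was 0.597 to 0.936, highest for CNX1.2 and CNX1.4 and next for CNX1.1 and CNX1.5 (0.935), while CNX1.4 and CNX1.6 had 0.875. Each calnexin copy correlated with CRT1/CRT1A.1 by 0.736 to 0.884 over 10 libraries and by 0.344 to 0.658 over the 7 treated libraries. These points share the difference between pollen and treated libraries and the library sets named above, and the correlations are a description only.

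Among the other ER stress genes, those most like the summed calnexin over 10 libraries were ERDJ3B.3 (r = 0.968), SDF2.1 (r = 0.948) and BiP2.3 (r = 0.907). ERDJ3B and SDF2 are partners of BiP, the ER-resident HSP70 chaperone. Over the 7 treated libraries the values were 0.820, 0.748 and 0.356, lowest for BiP2.3, and the order of the list was another. There 4 other genes had higher values than ERDJ3B.3: PDIL1-1/PDI5.4 (0.898), PDIL1-1/PDI5.2 (0.867), bZIP17.2 (0.866) and PDIL1-1/PDI5.1 (0.836), which were named after their values had been seen. The log2 fold changes of bZIP17.2 against pollen were imprecise (SE 1.78 in HS + TSA low and 2.01 in HS + TSA high), so its correlation is uncertain. Over 10 libraries PDIL1-1/PDI5.4 and PDIL1-1/PDI5.2 had −0.043 and −0.268, so the ranking depends on whether pollen is included. Among all genes ERDJ3B.3 was the 10th, SDF2.1 the 50th and BiP2.3 the 312th most like. For CRT1/CRT1A.1 the closest genes of the list were SDF2.3 (r = 0.956, and 0.845 over treated libraries), SDF2.4 (0.945 and 0.787) and ERDJ3B.2 (0.913 and 0.806). A correlation of at least 0.9 was reached by 0.868% of all genes with summed calnexin and by 2.01% with CRT1/CRT1A.1.

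The other 45 genes of the list with counts give the setting of the ER machinery, and were called by the same fit. Among all tested genes, 18.8% were called lower and 27.5% higher in HS + TSA high than in pollen. For HS + TSA low these shares were 17.4% and 26.4%. Of 8 BiP genes, which bind unfolded chains without needing a sugar, 6 were lower in HS + TSA high and 8 in HS + TSA low than in pollen. Of 9 ERDJ3B and SDF2 genes, 9 were lower in HS + TSA high and 7 in HS + TSA low. Of 6 protein disulfide isomerases, which form disulfide bonds in the ER, 0 were lower and 1 higher in HS + TSA high, and 2 were lower and 1 higher in HS + TSA low.

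Of 18 genes that signal in the unfolded protein response (membrane sensors, the proteases that release them and their transcription factors), 7 were lower and 0 higher in each treated group. Both ECA4 calcium pump genes were lower in each treated group, while both P24DELTA5 genes, for cargo receptors of transport vesicles, were higher. Over these 45 genes, 24 were lower and 3 higher in HS + TSA high, beside 18.8% and 27.5% of all tested genes. In HS + TSA low 26 were lower and 3 higher, beside 17.4% and 26.4%. The median log2 fold changes of the 45 genes were −0.86 and −1.07. Between the concentrations 0 of 45 were lower and 3 were higher, beside 5.46% and 4.94% of all tested genes.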

How the data were processed

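RNA from 10 libraries was sequenced after SMART-seq cDNA amplification, which does not keep the strand. Raw counts for each gene, as the authors deposited them, come from featureCounts over exons of the Darmor-bzh version 10 annotation. The submitters' processing notes name STAR 2.7.10a, Subread 1.5.2 and DESeq2. The normalized table and the authors' 3 comparison tables, which hold fold changes and p-values, were not used. Of 61170 rows, 1712 that repeat another row were removed. Both mates of most pairs were counted, so depth overstates independent fragments.

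The counts were fitted in edgeR 4.0.16 (R 4.3.3) (filterByExpr with minimum count 10 and minimum total 15, TMM, robust quasi-likelihood test, Benjamini-Hochberg adjustment) with all 10 libraries in 1 fit and group as the only term. The SE was taken as the absolute log2 fold change over the root of F. The fit was tested on simulated data. Summaries and plots used pandas 2.3.3 and matplotlib 3.10.9 in Python 3.11.15. All 7 copies are named, and for likeness the 3 most correlated genes of the list for each target. The members and lists were chosen with earlier results of these data known. Alternatives were DESeq2 1.42.0, limma 3.58.1 (voom), other scalings, filters and thresholds, fits of 2 groups, halved counts, repeated rows kept, libraries left out or averaged, and a replicate block. Of 59458 IDs, 0 matched the reference gene table, so no sequences are shown.

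Same-numbered HS + TSA high and HS + TSA low libraries deviated together from their group means by correlations of 0.135 to 0.352, which all exceed 0.1 and by that measure pair them, although differently numbered libraries reached 0.286. The reported fit has no pairing term, and the paired fit is the alternative with the replicate number as a block. With pollen the correlations were −0.001 to 0.102, and pollen was not taken as paired. The block covers all 10 libraries and so still matches pollen libraries to treated ones by number. Its comparisons with pollen therefore rest on a pairing that was not taken here.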

Additional observations from a re-analysis of the deposited data

How the results depend on the processing

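Of the comparisons with pollen, those of CNX1.4, CNX1.6 and CRT1/CRT1A.1 kept their direction and call in all 25 alternatives for both concentrations. The call for CNX1.3 in HS + TSA low was lost in 9 alternatives, that for CNX1.2 in HS + TSA high in 6 and that for CNX1.3 in HS + TSA high in 1, while CNX1.5 in HS + TSA high was gained in 12 and CNX1.2 in HS + TSA low in 6. The count of copies lower than in pollen ranged from 4 to 6 for HS + TSA high and from 3 to 5 for HS + TSA low when each library was left out in turn. It was 3 for HS + TSA high without its libraries 2 and 3, which leaves 1 library. Without these libraries CNX1.4 made up 33.5% of CNX1 counts and CRT1/CRT1A.1 29.7% of all 7 copies in HS + TSA high.

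Between the concentrations, 1 copy (CRT1/CRT1A.1) was lower with DESeq2, limma-voom and upper quartile scaling, against 0 in the fit reported, and the leave-one-out range was 0 to 1. Over all alternatives its adjusted p was 0.0267 to 0.456. CNX1.4 reached 0.0663 on the log2 scale without HS + TSA low library 3, with a leave-one-out range of −0.267 to 0.0663 and a range over all alternatives of −0.480 to 0.0663. CNX1.6 reached 0.0941 without HS + TSA high libraries 2 and 3, with a leave-one-out range of −0.167 to 0.0343 and a range over all alternatives of −0.296 to 0.0941. Over all alternatives CNX1.1 ranged from −1.30 to −0.36, CNX1.2 from −0.40 to −0.05, CNX1.3 from −0.66 to −0.12, CNX1.5 from −0.49 to −0.21 and CRT1/CRT1A.1 from −0.58 to −0.28, all on the log2 scale and not past the threshold except for CRT1/CRT1A.1. CNX1.5 in HS + TSA low against pollen was 0.0602 without HS + TSA low libraries 1 and 4. The cause of these changes was not tested. With the replicate number as a block, which fits HS + TSA low library 4 exactly, 6 copies were lower in HS + TSA high and 3 in HS + TSA low than in pollen, and 0 differed between the concentrations. The block changed no call other than those of CNX1.5 and CNX1.3, and it also matches pollen libraries by number, although pollen was not taken as paired. With a minimum count of 50, CNX1.1 was not tested. The sums and shares without named libraries were computed after the data had been seen. Depth limits only CNX1.1, with at most 68 counts in a library.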
